A study of Mus musculus with 4 samples.

Results

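The outer dynein arm docking complex is described here from lung RNA sequencing of Dnah9 knockout mice. All 7 genes of the group were found by name among the 21931 genes of the expression table: the docking subunits Odad1, Odad2, Odad3, Odad4 and Efcab1, and the delivery factors Daw1 and Ccdc103. The libraries comprised 2 labelled Dnah9 knockout (KO 1 and KO 2), 1 with the genotype label Hez, and 1 wild type (WT). The mice were of the C57BL6 strain and 2 months old, and no treatment was given. The labels do not spell out Hez, which is kept as written, and do not say how Dnah9 was disrupted or whether the 2 knockout libraries came from littermates, so the tests speak only of the spread between these libraries, whether biological or technical.

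Motile cilia beat through dynein motors fixed in rows along the microtubule doublets of the axoneme. The outer arms, which set beat frequency, do not bind the doublet by themselves but sit on a docking complex laid down along it. In the airway these genes are active in multiciliated cells, which sweep mucus out of the lung, and human mutations in Odad1 to Odad4 and in Ccdc103 cause primary ciliary dyskinesia with loss of outer arms. Dnah9, the gene knocked out, encodes an outer arm heavy chain, a motor subunit of the arms that this complex anchors.

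The stretches before the members' transcription starts are shown because multiciliated cell genes are commonly bound by RFX factors (X-box) and forkhead factors such as Foxj1. Whether such factors bear on the members' levels in these libraries was not tested. RefSeq promoter sequences (GRCm38.p6, 250 bases before to 50 after the annotated start) were searched for 4 of the 7 genes, matched by symbol. Odad1 was listed as Ccdc114 and Odad3 as Ccdc151. Odad4 and Efcab1 had no entry, and Odad2 was left out of the search, so the motif counts do not cover these members. The gene coordinates of the expression table are on GRCm39 and were not combined with the promoter sequences. The promoters lie at chr9:22002585-22002884 on the minus strand (Odad3), chr11:102880974-102881273 on the plus strand (Ccdc103), chr1:83159505-83159804 on the plus strand (Daw1, the first of its listed starts) and chr7:45923965-45924264 on the plus strand (Odad1). They are written 5′ to 3′ along the gene's strand, and capitals mark motif matches.
Odad3: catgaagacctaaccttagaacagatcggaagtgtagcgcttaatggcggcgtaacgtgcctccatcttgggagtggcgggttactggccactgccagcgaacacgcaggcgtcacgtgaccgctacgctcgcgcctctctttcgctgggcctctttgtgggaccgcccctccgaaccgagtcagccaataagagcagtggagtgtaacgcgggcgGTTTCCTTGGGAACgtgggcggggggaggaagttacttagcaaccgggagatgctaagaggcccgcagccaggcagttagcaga
Ccdc103: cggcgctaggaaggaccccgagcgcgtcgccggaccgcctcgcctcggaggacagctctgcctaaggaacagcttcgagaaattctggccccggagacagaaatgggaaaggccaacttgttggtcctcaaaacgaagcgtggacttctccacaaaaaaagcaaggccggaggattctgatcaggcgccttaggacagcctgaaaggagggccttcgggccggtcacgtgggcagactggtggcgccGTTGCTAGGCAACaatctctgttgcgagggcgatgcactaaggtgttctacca
Daw1: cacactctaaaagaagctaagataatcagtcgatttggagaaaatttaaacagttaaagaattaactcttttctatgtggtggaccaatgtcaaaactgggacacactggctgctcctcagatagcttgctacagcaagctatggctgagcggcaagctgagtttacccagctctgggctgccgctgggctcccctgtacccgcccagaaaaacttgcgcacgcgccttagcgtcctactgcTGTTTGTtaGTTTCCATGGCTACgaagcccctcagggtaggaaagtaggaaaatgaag
Odad1: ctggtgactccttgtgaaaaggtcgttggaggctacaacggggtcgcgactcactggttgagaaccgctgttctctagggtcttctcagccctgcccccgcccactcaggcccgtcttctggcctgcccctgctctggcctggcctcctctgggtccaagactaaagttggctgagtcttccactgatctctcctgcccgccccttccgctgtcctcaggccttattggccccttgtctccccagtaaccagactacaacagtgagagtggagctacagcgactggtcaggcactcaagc
On both strands, 4 motifs were searched: the X-box (GTTNCC and GGNAAC with 2 bases of any kind between them), the single RFX site GTTGCCAT, and the forkhead forms TGTTTAC and TGTTTGT. Among the 4 genes searched, the X-box was found in Odad3 alone, and in 0.451% of all 32851 promoters. In Odad3 it started at base -34 from the transcription start (the start being base 1). Of the same 4, TGTTTGT was found in Daw1 alone, at base -8, and in 6.61% of all promoters. The single site GTTGCCAT (1.35% of all promoters) and TGTTTAC (3.65%) were found in 0 of the 4. Further forms were chosen after the sequences had been seen. The X-box with up to 1 mismatch was in Odad3, at the place given above, in Daw1, at base 2, and in 2.56% of all promoters. Counted from the other listed start of Daw1, this match began at base -6 and TGTTTGT at base -15. A shorter form, GTTGC and GCAAC with 3 bases of any kind between them, was in Ccdc103, at base -3, and in 0.225% of all promoters. The shorter form does not overlap the other matches, and the Odad1 stretch held none of these letters.

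Library totals were 16382227 and 15860478 reads in KO 1 and KO 2, 16553480 in Hez and 16106514 in WT. Dnah9 itself had 240 and 254 reads in KO 1 and KO 2, 420 in Hez and 917 in WT, a log2 fold of -1.88 for knockout over wild type (SE 0.145, edgeR adjusted p = 0.00864). Between libraries, the chi-square per gene was 10.03 for KO 1 and KO 2, 10.9 for KO 2 and Hez and 11.9 for KO 2 and WT, against 8.06 to 8.52 for the pairs without KO 2, so KO 1 lay closer to Hez and to WT than to KO 2. Of 12 multiciliated cell markers, all had reads in every library. Their summed level was 720.1 and 723 CPM (read counts scaled to the library total) in KO 1 and KO 2, 653 in Hez and 949.7 in WT. Tppp3 alone held 323 and 310 CPM of it in KO 1 and KO 2, 269 in Hez and 362 in WT. The log2 fold of Tppp3 for knockout over wild type, -0.20, was the smallest in size of the 12. All 12 of 12 markers were lower in the knockout and in Hez than in WT. Club cell markers summed to 17036 and 14210 CPM in KO 1 and KO 2, 15704 in Hez and 20408 in WT, with 6 of 6 lower in both. Alveolar type 2 markers summed to 23491 and 22523 CPM in KO 1 and KO 2, 20714 in Hez and 20220 in WT, with 4 of 4 higher in the knockout. Of all 15055 tested genes, 7365 were lower and 7690 higher in the knockout than in WT, and 50.4% were lower in Hez than in WT. Alveolar type 1 markers summed to 2210 and 2181 CPM in KO 1 and KO 2, 2346 in Hez and 2116 in WT. Basal cell markers summed to 2.77 and 3.65 CPM in KO 1 and KO 2, 3.09 in Hez and 4.20 in WT, and Krt5 had 0 reads in KO 2. Sperm markers had 1 read in KO 1 and 0 in KO 2, Hez and WT, and the choroid plexus markers Ttr and Kl summed to 0.370 to 1.11 CPM. Whole lung was sequenced, so fewer ciliated cells and less RNA per ciliated cell cannot be told apart in what follows.

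The docking subunits and delivery factors were all low in whole lung, with 38 to 430 reads per gene and library, and all 7 passed the filter on low counts. In every one of the 7 the wild-type library was the highest of the 4, an order that 25.2% of all 15055 tested genes shared. Both knockout libraries lay below wild type for 7 of 7 members, against 33.4% of all tested genes. All 7 log2 folds of knockout over wild type were negative, as were 48.9% of those of all tested genes. None passed the threshold of an adjusted p of 0.05 in edgeR, which 8 of all tested genes (0.0531%) did. With limma 0 members passed, as did 0 of all genes. DESeq2, which called 16 genes in all, gave an adjusted p for Efcab1 alone, which missed the threshold, and none for the other 6. Below an unadjusted p of 0.05 were 3 of the 7, all lower, against 3.37% of all tested genes. The median log2 fold of the members was -0.63, and that of all tested genes 0.00449. The wild-type group is 1 library, and its spread was assumed equal to that of the knockout pair.

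**Figure D1:**
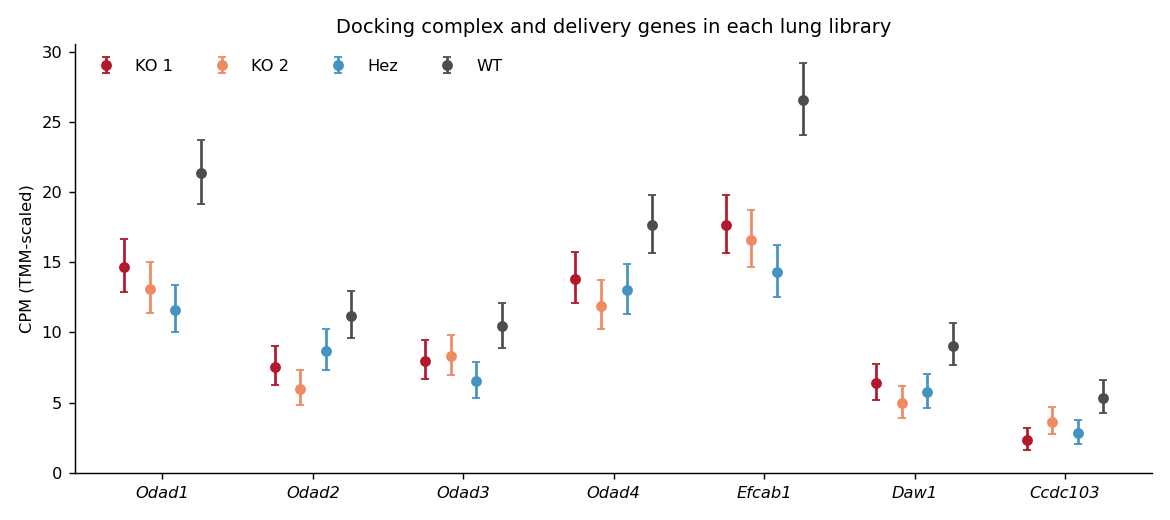
CPM of the 7 genes in each library (x axis, genes; y axis, CPM), with 95% exact Poisson intervals that cover counting error only. The WT point is the highest for every gene, and the Hez point lies below both knockout points for Odad1, Odad3 and Efcab1.

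Odad1 and Odad3 encode the coiled-coil subunits that form the elongated core of the complex on the doublet. Odad1 (ENSMUSG00000040189, chromosome 7, 45573496 to 45598387 on GRCm39) had 14.7 and 13.1 CPM in KO 1 and KO 2, 11.6 in Hez and 21.4 in WT. Wild type was the highest, with an exact Poisson interval of 19.2 to 23.7 CPM that covers counting error only, and Hez was the lowest. The log2 fold of knockout over wild type was -0.62 (SE 0.191, 95% interval -1.06 to -0.18, edgeR unadjusted p = 0.0116, adjusted p = 0.677), lower in both knockout libraries. Odad3 (ENSMUSG00000039632, chromosome 9, 21901167 to 21913930) had 7.99 and 8.30 CPM in KO 1 and KO 2, 6.53 in Hez and 10.4 in WT. Its knockout libraries were the closest pair of the group, with KO 1 minus KO 2 at -0.05 on the log2 scale. Its log2 fold of -0.36 was the smallest in size among the members (SE 0.248, 95% interval -0.93 to 0.22, edgeR adjusted p = 0.996).

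Odad2, an armadillo repeat protein, and Odad4, a tetratricopeptide repeat protein, join the core and take part in holding the arm. Odad2 (ENSMUSG00000061802, chromosome 18, 7088209 to 7297936) had 7.56 and 5.98 CPM in KO 1 and KO 2, 8.71 in Hez and 11.2 in WT. It was the one member whose knockout libraries both lay below Hez as well as below WT, an order shared by 16.3% of all tested genes. Its log2 fold over wild type was -0.72 (SE 0.265, 95% interval -1.33 to -0.11, edgeR unadjusted p = 0.0262, adjusted p = 0.831). Odad4 (ENSMUSG00000006784, chromosome 11, 100436433 to 100463394) had 13.8 and 11.9 CPM in KO 1 and KO 2, 13.01 in Hez and 17.6 in WT. Hez lay between the knockout libraries, and wild type above all 3. The log2 fold over wild type was -0.46 (SE 0.203, 95% interval -0.92 to 0.01, edgeR adjusted p = 0.974).

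Efcab1 encodes calaxin, a calcium-binding protein of the docking complex that in zebrafish and mouse helps to hold outer arms in place. Efcab1 (ENSMUSG00000068617, chromosome 16, 14724470 to 14799235) had 17.6 and 16.6 CPM in KO 1 and KO 2, 14.3 in Hez and 26.5 in WT. It had the most reads of the members in every library and the smallest p. Wild type was the highest library and Hez the lowest. The log2 fold of knockout over wild type was -0.63 (SE 0.171, 95% interval -1.02 to -0.24, edgeR unadjusted p = 0.00600, adjusted p = 0.566), lower in both knockout libraries.

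The delivery factors had the fewest reads. Daw1 is a WD-repeat protein whose counterpart in the alga Chlamydomonas links outer arms to intraflagellar transport. Daw1 (ENSMUSG00000053161, chromosome 1, 83137473 to 83188295) had 6.39 and 4.97 CPM in KO 1 and KO 2, 5.75 in Hez and 9.07 in WT. Hez lay between the knockout libraries, and the log2 fold of knockout over wild type was -0.67 (SE 0.294, 95% interval -1.35 to 0.00392, edgeR adjusted p = 0.963). Ccdc103 binds microtubules and is needed for arm assembly in zebrafish and in people. Ccdc103 (ENSMUSG00000020930, chromosome 11, 102772030 to 102776042) had 38 and 58 reads in KO 1 and KO 2, 47 in Hez and 87 in WT. Its level was 2.34 and 3.65 CPM in KO 1 and KO 2, 2.84 in Hez and 5.37 in WT. The log2 fold was -0.84 (SE 0.408, 95% interval -1.78 to 0.10, edgeR adjusted p = 0.996), with the largest SE of the members. The fold turned on which knockout library was used, being -0.54 without KO 1 and -1.16 without KO 2. KO 1 minus KO 2 was -0.62 on the log2 scale, where counting alone gives an SD of 0.30. Ccdc103 overlaps Fam187a by 48 bases on the same strand, and Fam187a had 0 reads in the 4 libraries together. Odad4 and Ccdc103 share chromosome 11 with Dnah9 and lie 34.4 and 36.7 Mb from it, and the remaining members lie on other chromosomes.

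The Hez library, set against wild type as 1 library against 1 with no replicate check, was lower for 7 of 7 members, all of them by at least 1.2-fold, a fold that 16.8% of all tested genes reached in this direction. The ratio of Hez to wild type was 0.538 for Efcab1 (95% exact binomial interval 0.457 to 0.632, counting error only), 0.544 for Odad1 (0.454 to 0.651) and 0.530 for Ccdc103 (0.363 to 0.764). It was 0.626 for Odad3 (0.487 to 0.802), 0.634 for Daw1 (0.484 to 0.826), 0.737 for Odad4 (0.615 to 0.883) and 0.780 for Odad2 (0.622 to 0.976). The median difference was -0.66 on the log2 scale for the members and -0.00229 for all tested genes. The comparisons of the knockout and of Hez share the wild-type library. As a percentage of wild type, Odad1 stood at 68.8% and 61.3% in KO 1 and KO 2 and 54.4% in Hez, and Efcab1 at 66.5% and 62.6% in KO 1 and KO 2 and 53.8% in Hez. Odad2 stood at 67.7% and 53.5% in KO 1 and KO 2 and 77.99% in Hez. Dnah9 itself stood at 26.1% and 28.2% of wild type in KO 1 and KO 2 and 44.9% in Hez. For Dnah9 the Hez library lay between the knockout libraries and wild type, whereas for Odad1, Odad3 and Efcab1 Hez was the lowest of the 4 libraries, as it was for 25.4% of all tested genes.

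Against Hez, the knockout libraries showed no common direction. The log2 fold was positive for 4 members and negative for 3, with a median of 0.07, against 0.00989 for all tested genes, of which 47.5% had a negative fold. By edgeR 0 members passed the threshold and 0 had an unadjusted p below 0.05, against 0.00664% and 4.61% of all tested genes. DESeq2 likewise called 0 members, and 7 genes in all. Both knockout libraries lay above Hez for Odad1, Odad3 and Efcab1, a direction that 34.2% of tested genes shared, and both below it for Odad2 alone (31.9%). The log2 folds were 0.26 for Efcab1 (95% interval -0.15 to 0.68), 0.26 for Odad1 (-0.21 to 0.72), 0.32 for Odad3 (-0.28 to 0.92) and -0.36 for Odad2 (-0.99 to 0.26). For Odad4, Daw1 and Ccdc103 they were -0.02 (-0.50 to 0.46), -0.02 (-0.72 to 0.69) and 0.07 (-0.93 to 1.08). For Odad2, Odad4, Daw1 and Ccdc103 these intervals hold the fold seen against wild type, and for Odad1, Odad3 and Efcab1 they do not. This is no test of a difference, because the fold against wild type has an interval of its own. Both folds also share the knockout libraries, and Hez and wild type are 1 library each.

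**Figure D2:**
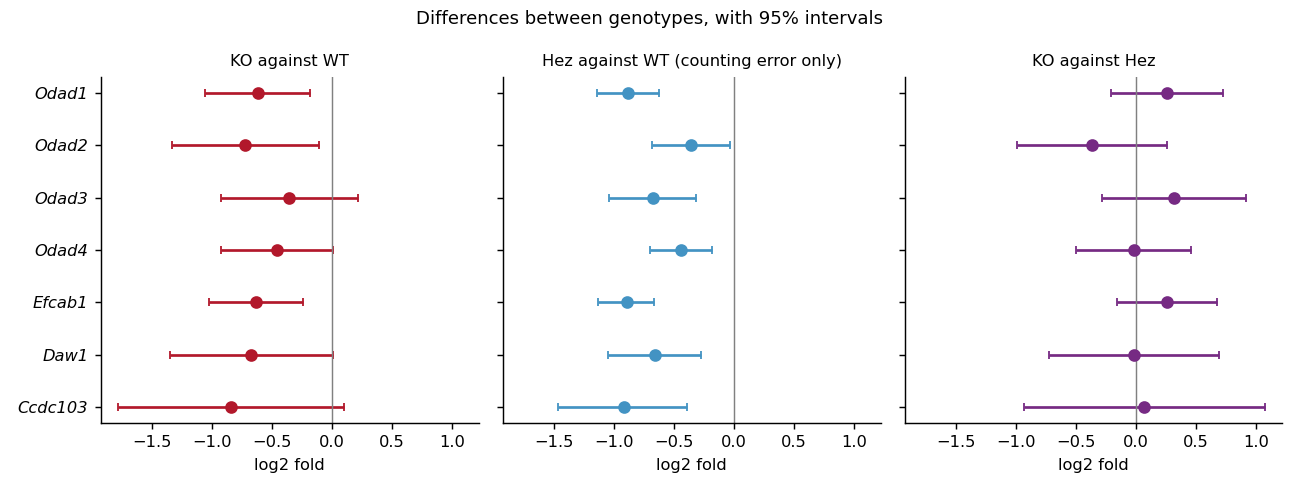
Log2 fold of each member (x axis) for knockout against WT, Hez against WT and knockout against Hez, with 95% intervals, which in the middle panel cover counting error only. All 7 points lie below 0 in the panels set against WT, and on both sides of 0 against Hez.

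With wild type and Hez taken as 1 group of 2 libraries, all 7 members had negative log2 folds, as did 50.9% of the 14674 genes tested in that fit, and the median was -0.26 against -0.00262 for all genes. By edgeR 0 members passed the threshold, against 0.0136% of all genes, and 1 had an unadjusted p below 0.05 in the lower direction, against 2.75%. This was Odad2 (-0.56, SE 0.228, edgeR unadjusted p = 0.0417, adjusted p = 0.975). Both knockout libraries lay below both others for this 1 member. Without the wild-type library the folds of Odad1, Odad3, Efcab1 and Ccdc103 were 0.25, 0.31, 0.26 and 0.07, and the median of the members was 0.07.

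Per gene length, the members could be compared with each other by FPKM (reads scaled to library total and gene length). In the knockout, Efcab1 was the highest at 3.86 ± 0.139 FPKM (SD, n = 2), followed by Odad3 at 3.23 ± 0.109, Daw1 at 2.65 ± 0.452, Odad1 at 2.28 ± 0.171, Odad4 at 2.09 ± 0.209, Odad2 at 1.64 ± 0.261 and Ccdc103 at 1.58 ± 0.5003. The ranges of the 2 knockout libraries did not overlap between Efcab1 and Odad3, Odad3 and Daw1, or Odad4 and Odad2, and did overlap between the other neighbours in this order. In Hez the order was Efcab1 at 3.22 FPKM, Daw1 at 2.68, Odad3 at 2.60, Odad2 at 2.12, Odad4 at 2.11, Odad1 at 1.91 and Ccdc103 at 1.502. In wild type it was Efcab1 at 6.03 FPKM, Daw1 at 4.26, Odad3 at 4.17, Odad1 at 3.53, Odad4 at 2.89, Ccdc103 at 2.86 and Odad2 at 2.73. The summed level was 17.8 and 16.9 FPKM in KO 1 and KO 2, 16.1 in Hez and 26.5 in WT.

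The make-up of the group was read from each gene's share of the summed FPKM. Efcab1 held 22.3% and 22.3% of the summed FPKM in KO 1 and KO 2, 19.9% in Hez and 22.8% in WT. Odad1 held 13.5% and 12.8% in KO 1 and KO 2, 11.8% in Hez and 13.3% in WT. The largest difference of the knockout mean from wild type was 2.93 percentage points, for Odad3, which held 17.8% and 19.6% in KO 1 and KO 2, 16.1% in Hez and 15.8% in WT. Ccdc103 ranged most between the knockout libraries, with 6.91% and 11.5% in KO 1 and KO 2, 9.31% in Hez and 10.8% in WT.

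On the scale of ciliated cell markers, taken as the mean log2 CPM of the 12 marker genes, the members' differences from wild type were smaller. The mean marker level differed from WT by -0.51 and -0.53 on the log2 scale in KO 1 and KO 2 and by -0.59 in Hez. Relative to it, the members' median difference of knockout minus wild type was -0.11, with a range of -0.33 for Ccdc103 to 0.17 for Odad3, and 5 of 7 below 0. The median was -0.03 in KO 1 and -0.14 in KO 2, and that of Hez minus wild type was -0.07. With the markers' summed CPM in place of the mean log2 CPM, which gives abundant markers more weight, the median of knockout minus wild type was -0.23. On this scale Efcab1 stood at -0.84 and -0.90 in KO 1 and KO 2, -1.05 in Hez and -0.76 in WT. Odad2 stood at -2.04 and -2.36 in KO 1 and KO 2, -1.76 in Hez and -2.00 in WT. The part of ciliated cell number in the members' levels was not tested.

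**Figure D3:**
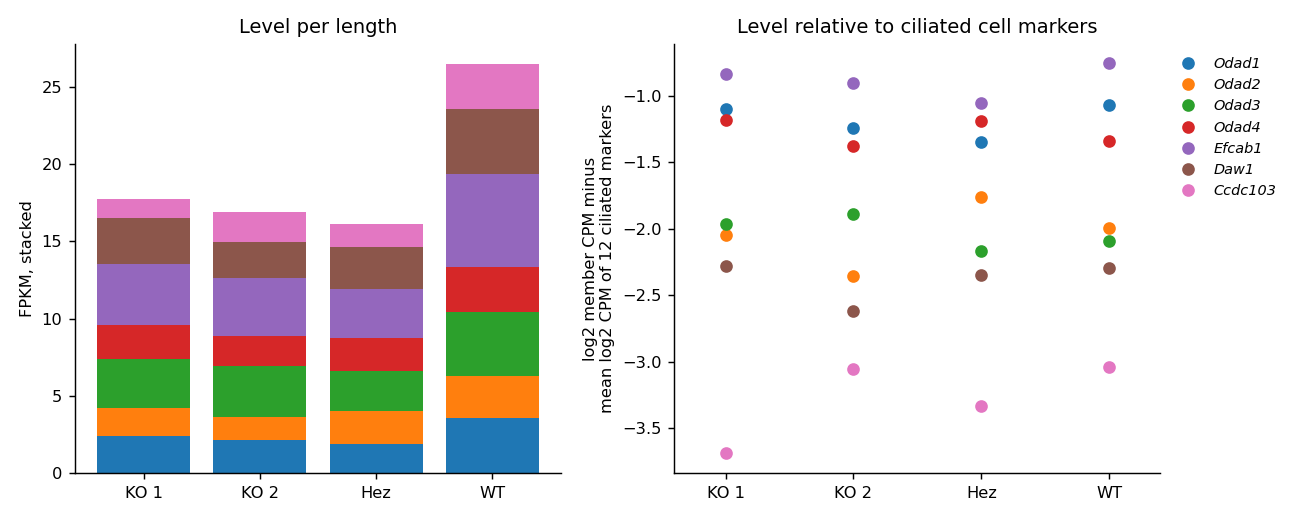
Left, FPKM of the 7 genes stacked per library (y axis, FPKM). Right, log2 CPM of each gene minus the mean log2 CPM of 12 ciliated cell markers (y axis). The summed FPKM is 26.5 in WT and 16.1 to 17.8 in the other libraries, and on the right Efcab1 is the highest and Ccdc103 the lowest gene in every library.

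Other genes of the outer arm pathway lay on the same side of wild type by smaller medians. Of all tested genes, 48.9% had negative folds of knockout over wild type. By edgeR 3.37% were lower with an unadjusted p below 0.05, and 0.0531% passed the threshold in either direction. Of 8 outer arm subunits, 7 were tested (Nme8 had 0 reads in all libraries), all 7 had negative folds in the knockout against wild type with a median of -0.45, 3 were below an unadjusted p of 0.05 in edgeR, and 1, Dnah9, passed. The next smallest p belonged to Dnah5, the other main outer arm heavy chain, with 75.4 and 79.7 CPM in KO 1 and KO 2, 69.1 in Hez and 106 in WT (log2 fold -0.45, SE 0.1003, edgeR adjusted p = 0.402). Dynlrb2, a light chain, stood at -0.52 (SE 0.145, edgeR adjusted p = 0.599). Of 11 cytoplasmic preassembly factors, 9 were tested (Dnaaf6 had 0 reads, and Dnaaf4 had 2 reads in KO 2 and 0 elsewhere), 8 had negative folds with a median of -0.32, and 0 passed in edgeR, with 1 below an unadjusted p of 0.05. Lrrc6 stood at -0.53 (SE 0.224), Dnaaf3 at -0.49 (SE 0.260) and Spag1 at -0.36 (SE 0.249), each a factor for building arms before they enter the cilium. Of 4 docking partners and transport genes all 4 were tested and had negative folds, with a median of -0.24 and 0 called in edgeR, none below an unadjusted p of 0.05. Cfap53, a protein inside the doublet that binds docking proteins, stood at -0.46 (SE 0.234), Mns1, its partner there, at -0.33 (SE 0.231), and Lrrc56, known for outer arm transport, at -0.14 (SE 0.209). The ciliated cell markers had a median of -0.52, with 9 of 12 below an unadjusted p of 0.05 in edgeR and 0 past the threshold. The club cell markers, genes of another airway cell type, had a lower median than any of these lists, -0.96, with 6 of 6 below an unadjusted p of 0.05. RNA of the secreted proteins Scgb3a1, Bpifa1 and Scgb3a2 was lower in the knockout than in the 1 wild-type library. The log2 folds were -1.06 for Scgb3a1 (SE 0.0890, edgeR adjusted p = 0.00864) and -1.33 for Bpifa1 (SE 0.129, edgeR adjusted p = 0.0210). For Scgb3a2 the fold was -0.88 (SE 0.0971, edgeR adjusted p = 0.0365). Scgb1a1, which had 14770 and 12084 CPM in KO 1 and KO 2, 13356 in Hez and 16729 in WT and so makes up most of the club cell sum, stood at -0.32 (edgeR adjusted p = 0.677). For knockout against Hez the log2 folds were 0.40 for Scgb3a1, -0.09 for Bpifa1 and 0.15 for Scgb3a2. The part of club cells in the members' levels was not tested. No test of a difference between these lists and the docking group was made.

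In Hez against wild type the medians were -0.57 for outer arm subunits, -0.39 for preassembly factors, -0.22 for partners and transport, -0.64 for ciliated cell markers, and -1.13 for club cell markers. For knockout against Hez they were 0.04 for outer arm subunits, 0.20 for preassembly factors, 0.10 for partners and transport, 0.09 for ciliated cell markers, and 0.08 for club cell markers. Foxj1, which switches on the genes of motile cilia, had 70.6 and 70.9 CPM in KO 1 and KO 2, 68.4 in Hez and 104 in WT, a log2 fold of -0.55 for knockout over wild type (SE 0.0974, edgeR adjusted p = 0.273).

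**Figure D4:**
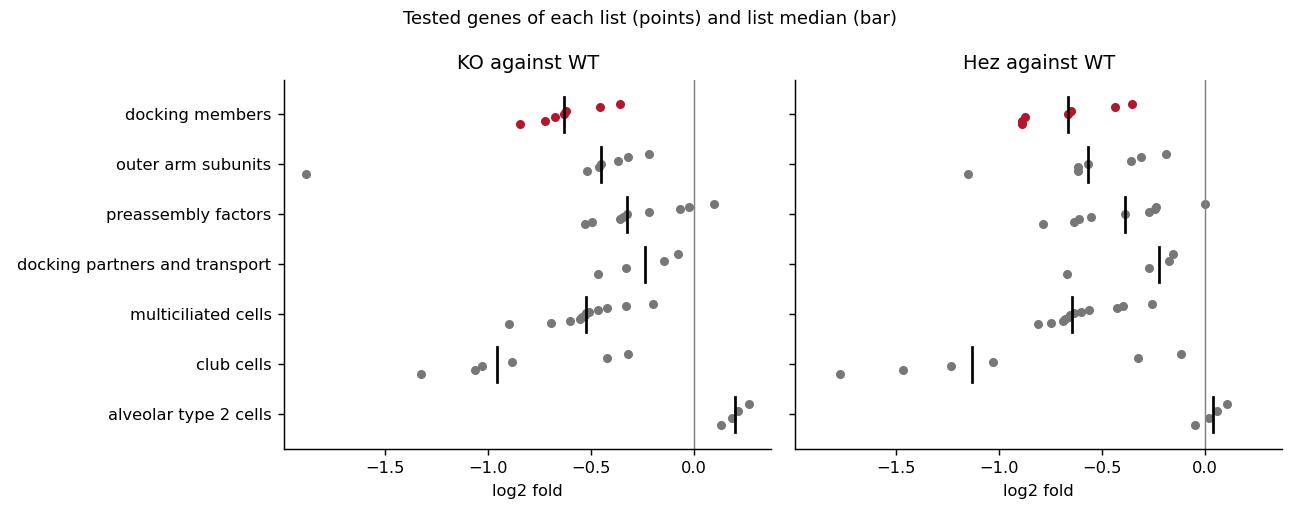
Log2 folds (x axis) of the tested genes of each list for knockout against WT and Hez against WT, with the list median as a bar. The docking genes have medians of -0.63 and -0.66, the ciliated cell markers -0.52 and -0.64, the club cell markers -0.96 and -1.13, and the alveolar type 2 markers 0.20 and 0.04.

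Genes with the most similar pattern were sought among 12079 others at a mean of 5 CPM or more, by the Euclidean distance between log2 profiles over the 4 libraries, each centred on its own mean. The members' mean profile stood at -0.10 and -0.17 in KO 1 and KO 2, -0.20 in Hez and 0.48 in WT. The members themselves lay 0.17 (Efcab1) to 0.52 (Ccdc103) from it. The nearest other gene was Calml4, a calmodulin-like protein, at a distance of 0.0410, with 11.8 and 11.1 CPM in KO 1 and KO 2, 11.01 in Hez and 17.1 in WT. Next came Myo1h (0.0480), Chad (0.0488), Cfap65, an axoneme protein (0.0544), Vtcn1 (0.0611), Gm867 (0.0615), Map3k19 (0.0641) and Spata6l (0.0674). Of these Cfap65 was the most abundant, with 72.3 and 69.3 CPM in KO 1 and KO 2, 70.9 in Hez and 109 in WT. With 4 libraries such likeness is a description of these samples only.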

How the data were processed

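Lung RNA of 4 mice was sequenced on an Illumina HiSeq after TruSeq library preparation, per the labels' protocols. The authors deposited raw read counts per gene and FPKM values in 1 table, per the file headers, and all 66024 deposited FPKM values above 0 equal the count divided by library total and gene length within a relative tolerance of 1e-06. The submitters' processing notes name the build GRCm39. The sources used here name no aligner, counting tool or strand setting. Antisense reads may therefore not be separated.

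Counts were TMM-scaled, filtered (filterByExpr, minimum count 10) and fitted with edgeR 4.0.16 (R 4.3.3), with the two-sided quasi-likelihood test and Benjamini-Hochberg adjustment over all 15055 tested genes. The fit with 3 groups had 1 residual and 7.02 prior degrees of freedom, and that with 2 groups had 2 and 5.72, so errors draw largely on other genes. SE is the log2 fold divided by the square root of F. CPM uses TMM-scaled totals, and log2 CPM a prior count of 2. Alternatives used DESeq2 1.42.0, limma 3.58.1 on log2 FPKM with pseudocounts of 0.5 and 0.1 (mean FPKM of at least 0.1), other scalings and filters, and left-out libraries. Chi-square per gene between libraries was 8.06 to 11.9 (smallest for KO 1 and Hez, largest for KO 2 and WT), so no pair agreed within counting noise. Named genes were the members, Dnah9, the 3 of each pathway list with the smallest p in knockout against wild type, and the 8 of most similar profile. The club cell genes, Fam187a, Foxj1, Tppp3, Krt5, Ttr, Kl, Nme8, Dnaaf4 and Dnaaf6 were named beyond that rule. The members and lists were chosen with earlier results of these data known.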

Additional observations from a re-analysis of the deposited data

How the results depend on the processing

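The members' folds kept their direction in all 59 recomputed values against wild type, in 56 of 59 against Hez and in 69 of 73 against both groups together. Those against wild type all rest on the same 1 wild-type library, which could not be left out, so they do not check it. An adjusted p was had for 39, 45 and 66 of the recomputed values, in the same order, and 0 of them passed the threshold. DESeq2 gave none for 6 members against wild type and for 7 against both groups. The reversals against both groups came without the wild-type library, and with 1 library left out the fold spanned -0.62 to 0.25 for Odad1, -0.36 to 0.31 for Odad3, -0.63 to 0.26 for Efcab1 and -0.84 to 0.0681 for Ccdc103. Those against Hez came with 1 knockout library left out, where the fold spanned -0.13 to 0.0878 for Odad4, -0.20 to 0.15 for Daw1 and -0.27 to 0.35 for Ccdc103. With 1 library left out, the members' median spanned -0.67 to -0.54 against wild type (-0.63 with all), 0.15 to 0.17 against Hez (0.07 with all), and -0.63 (without Hez) to 0.0681 (without wild type) against both (-0.26 with all).

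With a filter of a mean of 10 CPM only 3 members were left, all 3 lower than wild type, and their median against Hez was 0.26. That median was 0.0345 with limma at a pseudocount of 0.5 and 0.0366 at 0.1. On the summed CPM of the ciliated markers the members' relative difference from wild type was -0.23. Against wild type 8 genes were called, 4 with no filter, 4 with the stricter filter, 16 with DESeq2 and 0 with limma at either pseudocount. Against Hez 1 gene was called, 7 with DESeq2 and 0 with limma. Against both groups 2 were called, 1 with the stricter filter, 33 with DESeq2, 1 with limma, and 1 to 107 with 1 library left out: 107 without KO 1, 24 without KO 2, 8 without Hez and 1 without wild type. The cause of these shifts was not tested. Other scalings moved the median of all genes by -0.00122 and -0.0123. Dropping 1 knockout library leaves no spread to test against wild type or Hez alone, so those are values with no test. No paired analysis was possible because Hez and wild type had 1 library each. For Ccdc103, at 38 to 87 reads, counting alone gives an SD of 0.30 for KO 1 minus KO 2 on the log2 scale.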
